A study of Mus musculus with 2 samples.

Results

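The genes described here encode voltage-gated calcium and sodium channels and potassium channels of every kind, with their auxiliary subunits, in the embryonic mouse pituitary. Members were chosen by symbol: protein-coding genes that begin with Cacna1, Cacna2d, Cacnb, Cacng or Kcn, or that read Scn, a number and a or b, with Kcnj8 left out. The rule found 133 genes among 55401, and 46 of them were detected, which means at least 1 FPKM in at least 1 library. FPKM divides the fragments of a gene by its summed exon length and by the library total. Levels of different genes, and the 1 FPKM threshold, are comparable only as far as that length matches the transcripts present. The study set pituitaries of wild-type mice at embryonic stage E12.5 beside pituitaries of Dyrk2-/- mice (labelled Dyrk2-KO) of the same stage, with 1 polyA-selected library of total RNA for each genotype. Dyrk2 encodes a protein kinase, and the knockout is not restricted to any cell type by the labels. The number of embryos in each library is not given in the sources used here.

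Ion channels are membrane proteins that let selected ions pass. A pore-forming subunit carries the ion path, and auxiliary subunits set how it opens and how much of it reaches the membrane. Voltage-gated calcium and sodium channels carry the action potentials of endocrine cells, and calcium entry through them triggers the release of hormone granules. Potassium channels oppose this: background channels of the tandem-pore-domain (K2P) group hold the resting potential, while voltage-gated and calcium-activated channels end each spike. In the adult pituitary, hormone cells fire spontaneously, and the balance of these channels sets their firing and secretion.

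With 1 library per genotype differences could not be set against a spread between replicates, and no test was run. Ranges in brackets are exact 95% intervals from counted fragments, which totalled 20044938 in the wild-type and 20115771 in the knockout library. They cover counting error only. Dyrk2 measured 11.5 and 1.93 FPKM, in this order of wild type and knockout, which is the order of all paired values below, and the part of the gene that the knockout removes is not given in the sources used here. Markers of the pouch epithelium that forms the anterior lobe were abundant in both libraries: all 8 were detected, with Epcam at 194.5 and 193.2 FPKM and a summed level of 820 and 762 FPKM. The female-specific transcript Xist measured 74.98 and 14.8 FPKM and the Y-linked gene Ddx3y 5.83 and 14.95 FPKM, so both sexes were present in different proportions, and genotype and sex mixture cannot be told apart.

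After 0.5 FPKM was added to both values, 40 of the 46 detected channel genes (87.0%) differed by less than 1.5-fold, beside 96.0% of protein-coding genes. The 2 related potassium channel genes Kcnk3 and Kcnk9 were far lower in the knockout library. On the same scale, 4 of the 46 were at least 1.5-fold lower (Kcnk3, Kcnk9, Kcnh8 and Kcnip3) and 2 at least 1.5-fold higher (Kcne1l and Kcne3). Among all 14000 genes compared, 4.57% were that much lower and 2.07% that much higher, and among the 12105 protein-coding genes 2.97% and 1.08%. The 4 and 2 members are 8.70% and 4.35% of the 46, above these shares in both directions but few in number, and only Kcnk3 and Kcnk9 passed 2-fold. At 2-fold, 1.89% of all genes compared were lower and 0.857% higher, and of protein-coding genes 1.03% and 0.38%. The median log2 ratio of the 46 was -0.06, beside -0.02 for all genes compared. Of the 46, 28 ratios lay below 0, 17 above and 1 at 0.

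Detection itself can favour a difference, because 6 members passed only through the wild-type library and 3 only through the knockout library. Kcnk3 and Kcnk9 are among the former and Kcne3 among the latter. Of the 37 members at 1 FPKM or more in both libraries, Kcnh8 and Kcnip3 were at least 1.5-fold lower (5.41%) and Kcne1l higher (2.70%). The share of all genes under that filter was not computed, so these members cannot be set against it. Of the 41 members with a mean of at least 1 FPKM, 3 were lower (7.32%) and 2 higher (4.88%), where all genes of that mean gave 3.57% and 1.52%. Channel genes were also weakly expressed: the mean level of the 46 had a median of 2.30 FPKM, against 8.51 FPKM for protein-coding genes. Near the threshold, Kcnab3 (0.91 and 1.02 FPKM) and Kcnd1 (1.04 and 0.90 FPKM) were just inside, as was Kcnk9 at 1.03 FPKM in the wild-type library. Kcnf1 (0.81 and 0.98 FPKM) and Kcnn2 (0.96 and 0.71 FPKM) were among those just outside.

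**Figure D1:**
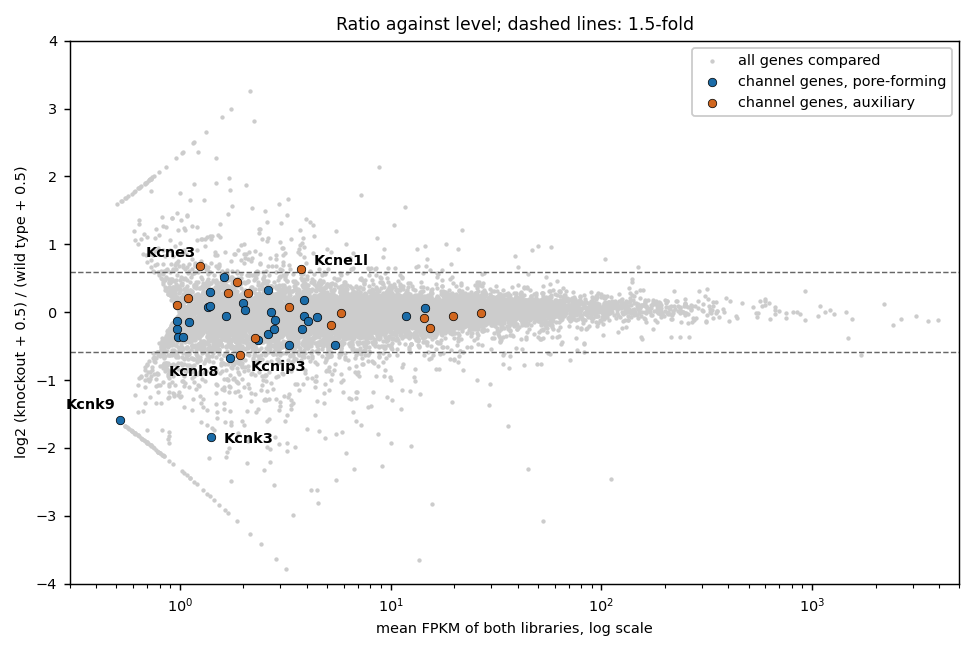
Log2 ratio of knockout over wild type with 0.5 FPKM added (y axis) against the mean FPKM of both libraries (x axis, log scale) for all 14000 genes compared (grey), with the 46 detected channel genes as large points. Kcnk3 and Kcnk9 lie well below the lower dashed line of 1.5-fold at -1.84 and -1.58, while the other 44 lie between -0.68 and 0.68.

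Kcnk3 encodes a K2P background channel of the TASK subfamily, which is closed by extracellular acid and by receptors that couple to Gq. It lies on chromosome 5 (chr5:30588170-30625271, plus strand, GRCm38) and measured 2.48 FPKM (2.15 to 2.86) in wild type, beside 0.33 FPKM (0.212 to 0.476) in the knockout library. These are 198 and 26 fragments. Kcnk3 was thus 7.52-fold lower (5.06 to 12.0), and 80 of the 14000 genes had a lower log2 ratio. Kcnk9 encodes a close relative, with which the Kcnk3 product can form mixed channels, and it lies on chromosome 15 (chr15:72501089-72546340, minus strand). It measured 1.03 FPKM (0.907 to 1.17) and 0.01 FPKM. This corresponds to 254 fragments in the wild-type library and to 2 or 3 in the knockout library, since the deposited rounding does not tell which. Kcnk9 was 127-fold lower with 2 fragments (34.9 to 1058) and 85.0-fold lower with 3 (28.7 to 415). In both genes the intervals of the 2 libraries are far apart. Kcnk15, the remaining gene of the same subfamily, was at 0 in both libraries. In bulk RNA, fewer cells of a type and less RNA per cell cannot be told apart.

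The transcripts of these close relatives were compared. The longest run that the coding sequences of Kcnk3 (1227 bases) and Kcnk9 (1206 bases) share without a mismatch is 20 bases, and no longer run is shared by the whole transcripts. The 80 bases around it are shown from GENCODE M21, with the shared run in capitals, because they hold the longest stretch that the pair has in common.
Kcnk3, chr5:30588329-30588408, plus strand, coding bases 13 to 92: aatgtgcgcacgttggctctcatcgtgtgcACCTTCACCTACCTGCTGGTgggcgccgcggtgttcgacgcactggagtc
Kcnk9, chr15:72546188-72546267, minus strand, coding bases 13 to 92: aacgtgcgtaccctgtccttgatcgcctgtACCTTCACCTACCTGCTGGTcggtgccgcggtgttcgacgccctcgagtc
How the authors' counting treated fragments of similar genes is not given in the sources used here, and its part in these values was not tested. Kcnk3 exons also overlap Gm9899 on the opposite strand, which measured 0.19 and 0.17 FPKM.

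What makes a potassium channel is the selectivity filter, a short stretch of the pore that strips water from potassium and passes it in file. The coding sequences were searched, after translation, for a filter signature: serine or threonine, then valine, isoleucine, threonine or leucine, then glycine, then tyrosine, phenylalanine or leucine, then glycine. This spelling was widened after a narrower one missed known families. A match was found in all 76 potassium pore and modulatory genes with a coding sequence and in 0 of the 56 other members. Because of the widening, the match in potassium genes is no test of the spelling, and genes outside the member list were not searched. All 14 K2P genes had 2 copies, as their name implies, and the other 62 had 1. The 63 bases around a filter are shown for the most expressed K2P gene, the most expressed voltage-gated potassium gene and the 3 potassium pore genes past 1.5-fold, with the filter codons in capitals. For K2P genes the second filter is given, which lies within a single exon.
Kcnk3, chr5:30622178-30622240, plus strand: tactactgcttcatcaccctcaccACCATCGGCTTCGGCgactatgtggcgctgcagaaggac
Kcnk9, chr15:72512695-72512757, minus strand: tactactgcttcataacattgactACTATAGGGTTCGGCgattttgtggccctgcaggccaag
Kcnk1, chr8:126025305-126025367, plus strand: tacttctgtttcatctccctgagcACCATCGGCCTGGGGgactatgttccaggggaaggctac
Kcna5, chr6:126533721-126533783, minus strand: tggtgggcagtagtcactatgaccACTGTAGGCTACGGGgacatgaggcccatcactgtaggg
Kcnh8, chr17:52877967-52878029, plus strand: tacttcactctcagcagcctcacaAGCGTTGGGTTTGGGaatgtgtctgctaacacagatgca
Set against the Kcnk3 stretch, 47 of 63 bases were the same in Kcnk9, 44 in Kcnk1, 30 in Kcnh8 and 28 in Kcna5. These counts cover the 63 bases around a conserved filter only, and the rest of the sequences was not compared in this way.

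The other detected K2P genes did not share the difference of the TASK pair. Kcnk1, a weak background channel of endosomes and epithelia, was the most expressed pore gene of all members at 14.3 FPKM (13.2 to 15.5) and 14.9 FPKM (13.8 to 16.1). Kcnk2, a channel opened by stretch, heat and lipids, measured 3.60 and 4.14 FPKM, with overlapping intervals. Kcnk5, an alkaline-activated channel of epithelia, was slightly higher in the knockout library, at 2.26 and 2.95 FPKM, a ratio of 1.31 (1.05 to 1.62). Kcnk6 measured 1.18 and 1.02 FPKM. The remaining 8 of 14 K2P genes stayed at or below 0.21 FPKM in both libraries. Because Kcnk1 dominates, the summed K2P level was 25.1 and 23.9 FPKM, and without Kcnk1 it was 10.8 and 8.98 FPKM.

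Among voltage-gated potassium pores, 11 of 30 were detected, and Kcnh8 was the only one past 1.5-fold. Kcnh8, of the slowly activating ELK type found mainly in neurons, lies at chr17:52602709-52979194 on the plus strand and measured 2.24 FPKM (1.95 to 2.57) and 1.21 FPKM (0.996 to 1.46), so it was 1.85-fold lower (1.46 to 2.36). Of the other ether-a-go-go genes, Kcnh2, the repolarising channel of the heart that also acts in lactotrophs, measured 2.96 and 2.71 FPKM. The Shaker-type gene Kcna5 was the most expressed, at 12.0 FPKM and 11.6 FPKM. The intervals overlap. Kcna3, of the same type and best known from lymphocytes, was at 6.40 and 4.44 FPKM, or 1.44-fold lower (1.18 to 1.76). Kcna6 was level, at 1.70 and 1.61 FPKM.

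The Shaw-type gene Kcnc2, whose fast channels allow rapid firing, was lower in the knockout library without reaching 1.5-fold on the log2 scale, at 2.74 and 1.93 FPKM (1.42-fold lower, 1.21 to 1.66). The A-type gene Kcnd2, whose channels delay the next spike, measured 2.70 FPKM in both libraries, and its relative Kcnd1, on the X chromosome, 1.04 and 0.90 FPKM. Summed over all 30 pores the level was 42.7 and 37.2 FPKM. The 10 modulatory genes, whose products are silent alone and alter other subunits, were all below 1 FPKM, with Kcnf1 the highest.

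Auxiliary subunits of voltage-gated potassium channels held the remaining members past 1.5-fold, in both directions. Kcnip3, which encodes a calcium sensor that binds A-type channels and, as DREAM, also DNA, lies at chr2:127456498-127522094 on the minus strand. It measured 2.45 FPKM (2.10 to 2.84) and 1.40 FPKM (1.14 to 1.71), or 1.75-fold lower (1.36 to 2.26), while its partner gene Kcnd2 was level. Kcnip4, of the same family, measured 0.98 and 1.21 FPKM. Kcne1l, also called Kcne5, encodes a small membrane subunit that inhibits Kcnq1 channels and lies at chrX:142304752-142306294. Its level was 2.81 FPKM (2.25 to 3.47) and 4.67 FPKM (3.94 to 5.50), a ratio of 1.66 (1.26 to 2.19). Kcne1l is X-linked, and the 520 X-linked genes compared had a median log2 ratio of -0.01. Kcne3, whose product keeps Kcnq1 channels open in epithelia, lies at chr7:100176502-100184869 and measured 0.84 FPKM (0.568 to 1.20) and 1.65 FPKM (1.26 to 2.13), which are 30 and 59 fragments. The ratio was 1.96 (1.24 to 3.15). Its exons overlap Gm34821 on the opposite strand, at 0.02 FPKM in both libraries. Kcnq1 itself was below the threshold, at 0.60 and 0.73 FPKM. Kcnab2, a cytoplasmic beta subunit of Shaker channels, measured 1.86 and 2.37 FPKM and Kcnab3 0.91 and 1.02 FPKM.

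**Figure D2:**
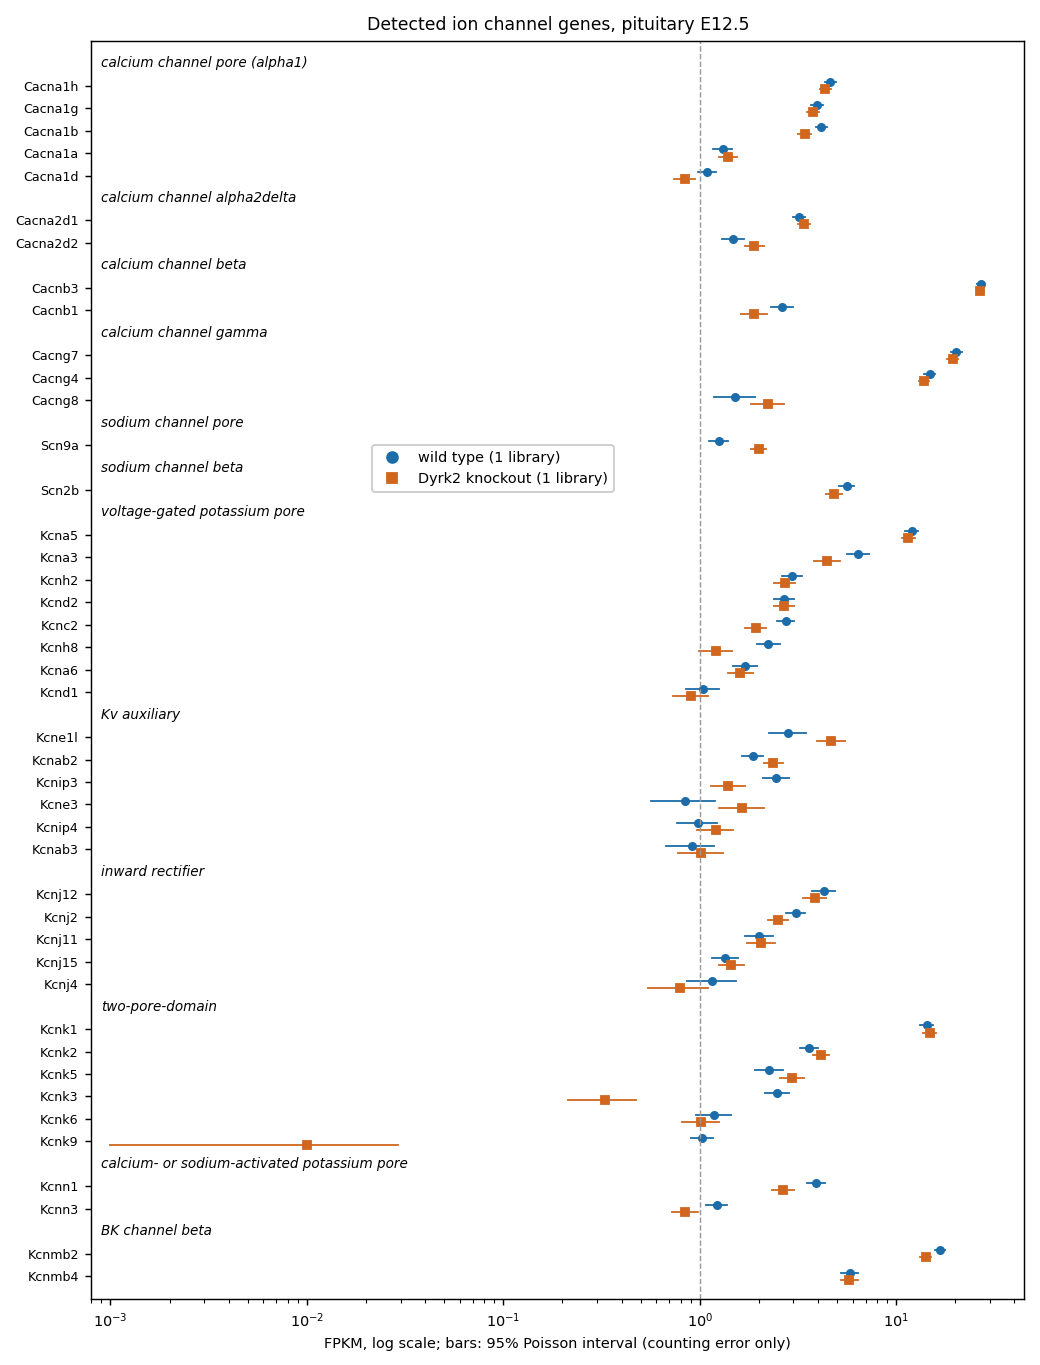
FPKM of detected channel genes (x axis, log scale; 43 of the 46 are drawn) by class, with circles for the wild-type and squares for the knockout library, and bars for the 95% Poisson interval of each value. The dashed line marks 1 FPKM, and the knockout values of Kcnk3 (0.33) and Kcnk9 (0.01) are the ones set apart from the rest.

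Inward rectifiers, which pass potassium near rest and close on depolarisation, had 5 of 14 genes detected and none past 1.5-fold. Kcnj12 and Kcnj2, strong rectifiers of muscle, neurons and vessels, measured 4.28 and 3.85 FPKM and 3.08 and 2.51 FPKM. Of these, the ratio of Kcnj2 was 0.815 (0.693 to 0.959), and the interval of Kcnj12 included 1. Kcnj11, the pore of the ATP-sensitive channel that couples metabolism to secretion, was level at 2.01 and 2.06 FPKM. Its sulfonylurea receptor genes were at 0.35 and 0.39 FPKM for Abcc8, the endocrine form, and at 5.43 and 4.61 FPKM for Abcc9, the form of vessels and muscle. Kcnj15 measured 1.34 and 1.45 FPKM and Kcnj4 1.16 and 0.79 FPKM, the latter on 50 and 34 fragments.

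The small-conductance calcium-activated genes Kcnn1 and Kcnn3, whose channels produce the pause after a burst of spikes, were both lower by a similar factor. Kcnn1 measured 3.90 FPKM (3.51 to 4.33) and 2.66 FPKM (2.33 to 3.01), or 1.47-fold lower (1.25 to 1.74). Kcnn3 measured 1.22 and 0.84 FPKM, 1.45-fold lower (1.19 to 1.77), and their relative Kcnn2, below the threshold, 0.96 and 0.71 FPKM. None passed 1.5-fold, but the intervals of all 3 ratios excluded 1. Such intervals, which hold counting error only, were common. They lay below 1 in 15 and above 1 in 8 of the 46 detected members. Among all 133 members they did so in 27 and 12. Their share among all genes compared was not computed, so no lean of the channel genes can be read from these counts. In FPKM, beta subunit genes of the large-conductance (BK) channel were above its pore gene, which was below the threshold. Kcnmb2, which makes the channel inactivate, measured 16.8 and 14.1 FPKM, and Kcnmb4, the neuronal form, 5.81 and 5.77 FPKM. Kcnma1, the BK pore, measured 0.66 FPKM in both libraries, so the FPKM of Kcnmb2 was 25.4 and 21.4 times that of the pore it binds. These multiples depend on the summed exon length, 16976 bases for Kcnma1 and 3128 for Kcnmb2. In fragments, Kcnma1 had 225 in each library and Kcnmb2 1052 and 889. Exons of Kcnmb4 overlap the antisense gene Kcnmb4os2, at 1.55 and 1.37 FPKM, and the use of strand in counting is not given in the sources used here.

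Of 26 calcium channel genes 12 were detected, and none was past 1.5-fold. Of the pores, the low-voltage T-type genes Cacna1h and Cacna1g, which open near rest, measured 4.62 and 4.37 FPKM and 3.96 and 3.78 FPKM. Cacna1h had the highest value in both libraries. Cacna1b, the N-type channel of transmitter release, measured 4.17 FPKM (3.89 to 4.46) and 3.42 FPKM (3.17 to 3.69), or 1.22-fold lower (1.10 to 1.35). In the wild-type library the interval of Cacna1b overlapped those of both T-type genes, while the intervals of Cacna1h and Cacna1g did not overlap. Overlap alone does not settle an order, and no ratio between these genes was computed. Cacna1a, the P/Q-type pore, was level at 1.31 and 1.40 FPKM. Cacna1d, an L-type pore that supports spontaneous firing in endocrine cells, measured 1.09 and 0.84 FPKM, 1.30-fold lower (1.10 to 1.53). The other L-type gene widespread in endocrine cells, Cacna1c, was below the threshold at 0.58 and 0.32 FPKM.

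Auxiliary calcium channel genes reached the highest levels of all members. Cacnb3, a cytoplasmic beta subunit that carries pores to the membrane, was the most expressed channel gene at 27.1 FPKM (26.0 to 28.2) and 26.8 FPKM (25.7 to 28.0). Cacnb1, the beta subunit best known from skeletal muscle, measured 2.62 and 1.9 FPKM, a ratio of 0.725 (0.592 to 0.885). Of the gamma family, Cacng7 measured 20.2 FPKM (18.99 to 21.5) and 19.4 FPKM (18.2 to 20.7) and Cacng4 14.8 and 13.9 FPKM, with overlapping intervals in both genes. Cacng8 measured 1.51 and 2.23 FPKM, a ratio of 1.48 (1.08 to 2.02). These gamma proteins are best known as partners of AMPA-type glutamate receptors rather than of calcium channels. The alpha2delta genes, which encode the binding sites of gabapentin, were at 3.19 and 3.40 FPKM for Cacna2d1 and at 1.48 and 1.9 FPKM for Cacna2d2.

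Voltage-gated sodium channel pore genes were low in FPKM. Of 10 pore genes, Scn9a alone reached the threshold, at 1.25 FPKM (1.12 to 1.39) and 2.0 FPKM (1.83 to 2.18). Scn9a, known from pain-sensing and neuroendocrine cells, had a plain ratio of 1.60 (1.39 to 1.85) and a log2 ratio of 0.51 with 0.5 FPKM added, which is under 1.5-fold. Scn2a, a neuronal form, stayed below at 0.79 and 0.65 FPKM, on 204 and 168 fragments over 12867 exon bases. The beta subunit gene Scn2b measured 5.60 and 4.85 FPKM, a ratio of 0.866 (0.761 to 0.983). The FPKM of Scn2b was 4.48 times that of Scn9a in the wild-type and 2.42 times in the knockout library. Scn2b has 4656 exon bases, with 523 and 454 fragments, and Scn9a 12772, with 320 and 514 fragments.

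Levels were concentrated in few members. They were split between the 16 detected auxiliary genes, at 109 and 107 FPKM in sum, and the 30 detected pore genes, at 96.0 and 86.3 FPKM. Sums over genes of different exon length carry the limit of FPKM given above. The 10 most expressed genes held 56.9% and 57.1% of the summed FPKM of all 133 members, and 6 of these 10 encode auxiliary subunits (Cacnb3, Cacng7, Kcnmb2, Cacng4, Kcnmb4 and Scn2b). Among the 30 detected pore genes, 3 were past 1.5-fold in the lower direction and none in the higher, beside the 4.57% and 2.07% of all genes compared. Of these 3, Kcnk3 and Kcnk9 had passed 1 FPKM through the wild-type library only. Of the 16 detected auxiliary genes, 1 was lower and 2 were higher. Summed levels of calcium channel beta and gamma genes were 30.6 and 29.5 FPKM and 37.1 and 36.1 FPKM. The calcium- or sodium-activated pores had the lowest ratio of sums among classes with a detected member, with 7.57 and 5.51 FPKM, and the auxiliary voltage-gated potassium genes the highest, with 11.03 and 13.8 FPKM.

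**Figure D3:**
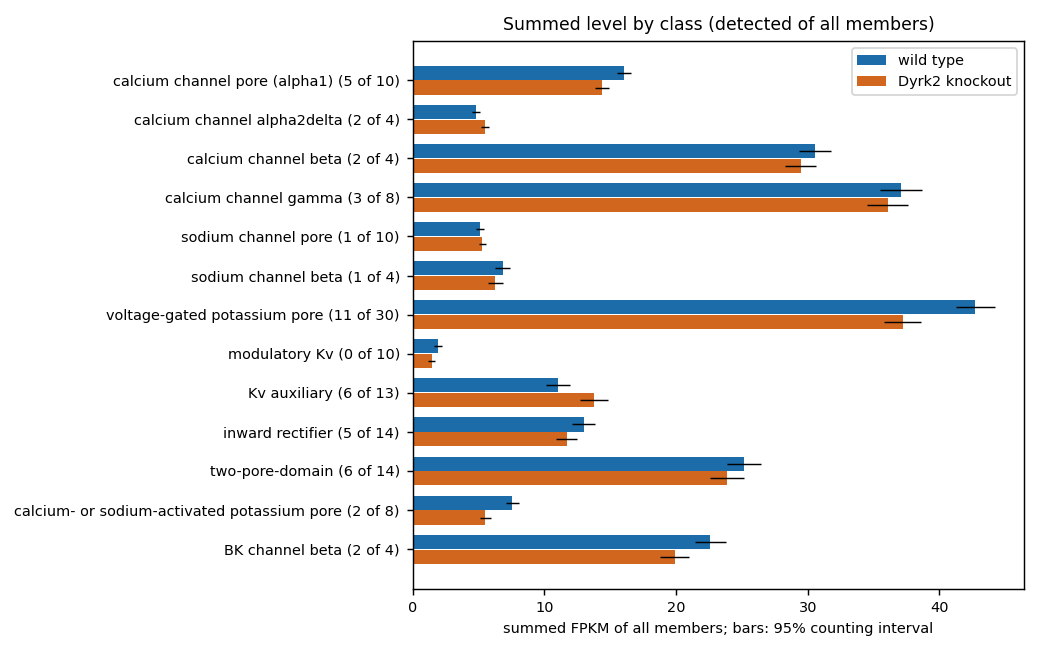
Summed FPKM of all members of each class (x axis) in the wild-type (blue) and knockout (orange) libraries, with 95% counting intervals by a normal approximation and the number of detected genes of all members in brackets. Calcium channel gamma subunits (37.1 and 36.1 FPKM) and voltage-gated potassium pores (42.7 and 37.2 FPKM) hold the largest sums.

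Genes that lie side by side in the genome were often expressed very differently. Cacng4 at 14.8 FPKM in the wild-type library sits between Cacng1 at 0.20 FPKM and Cacng5 at 0.20 FPKM on chromosome 11, with 15.8 kb to the former. Cacng7 and Cacng8 lie 22.5 kb apart on chromosome 7 at 20.2 and 1.51 FPKM. In the Shaker cluster of chromosome 6, Kcna5 measured 12.0 FPKM while Kcna1, 105 kb away, measured 0.11 FPKM. In the sodium channel cluster of chromosome 2, Scn9a was higher in the knockout library at 1.25 and 2.0 FPKM, and Scn7a, 38.5 kb away, was at 0.29 and 0.07 FPKM.

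Genes whose products work with these channels were listed separately. Of 42 listed symbols 39 matched a gene, 21 of those passed 1 FPKM in at least 1 library, with 6 at least 1.5-fold lower and none higher, beside the 4.57% and 2.07% of all genes given above. Stac, an adaptor that slows inactivation of L-type calcium channels, measured 21.9 and 12.1 FPKM, 1.81-fold lower (1.64 to 2.0). Rem2, an inhibitor of calcium channels that binds their beta subunits, measured 3.44 and 2.08 FPKM. Fgf13, whose product binds sodium channels, measured 11.2 and 7.26 FPKM. Hcn3, a pacemaker channel opened by hyperpolarisation, was at 2.79 and 1.17 FPKM, 2.38-fold lower (1.87 to 3.04).

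The other 2 lower partners belong to the sodium leak channel, the background conductance that depolarises cells against the potassium leak. Fam155a, also named Nalf1, encodes a subunit of this complex and measured 1.40 FPKM (1.20 to 1.61) and 0.43 FPKM (0.328 to 0.562), 3.26-fold lower (2.38 to 4.42). Unc80, its scaffold, measured 1.07 and 0.52 FPKM, 2.06-fold lower (1.69 to 2.51), and the pore gene Nalcn 1.07 and 0.81 FPKM, 1.32-fold lower (1.11 to 1.57). The scaffold gene Unc79 was at 0.42 and 0.45 FPKM. Fam155a and Unc80 had passed 1 FPKM through the wild-type library only, and Nalcn was within 1.5-fold.

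Markers of cell types that could carry these channels also differed between the libraries, and their part in the channel values was not tested. Among all genes compared, 4.57% were at least 1.5-fold lower and 2.07% higher. In lists of 7 compared genes, 1 gene past 1.5-fold cannot be told from these shares. The lists, like the members, were chosen with earlier results of these data known. Of 12 neuroendocrine markers 11 were compared, of which 9 were past 1.5-fold in the lower direction and none in the higher, with a summed level over the list of 459 and 148 FPKM and Chga at 94.9 and 10.8 FPKM. Of 16 neuronal markers 15 were compared, with 3 lower and none higher, a summed level of 143 and 128 FPKM. The 3 were Syp, at 4.12 and 1.97 FPKM, Nefm, at 16.8 and 9.19 FPKM, and Rbfox3, at 2.40 and 1.38 FPKM, while 10 of the 15 ratios lay above 0. Pericyte and smooth muscle markers summed to 153 and 99.7 FPKM, with 3 of 8 compared genes lower, and mesenchyme markers to 128 and 68.5 FPKM, with 4 of 8 lower and 1 higher. The 8 hypothalamic and infundibular markers summed to 120 and 102 FPKM. Of the 7 compared, Sox14 alone was lower, at 7.59 and 0.82 FPKM. Sim1, below the threshold and so not compared, was at 0.52 and 0.03 FPKM on 90 and 5 fragments. Endothelial markers summed to 122 and 136 FPKM with none past 1.5-fold, and erythroid markers to 2099 and 1615 FPKM with 1 of 7 lower. Glial markers summed to 29.7 and 29.2 FPKM with none of 5 past 1.5-fold. Most of that sum was Erbb3, at 23.3 and 24.3 FPKM, while Sox10 was at 0.03 and 0.10 FPKM. Of the 5 glial ratios compared, 4 lay below 0 and 1 above. Skeletal muscle markers were nearly absent, with Tnnt1 as the only one above 1 FPKM and Myod1 at 0.05 and 0.24 FPKM. Of all markers listed, Tcf21 of the mesenchyme list and Acta1 of the skeletal muscle list were at 0 in the knockout library, Chrna1 of the latter was at 0 in wild type, and none was at 0 in both.

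**Figure D4:**
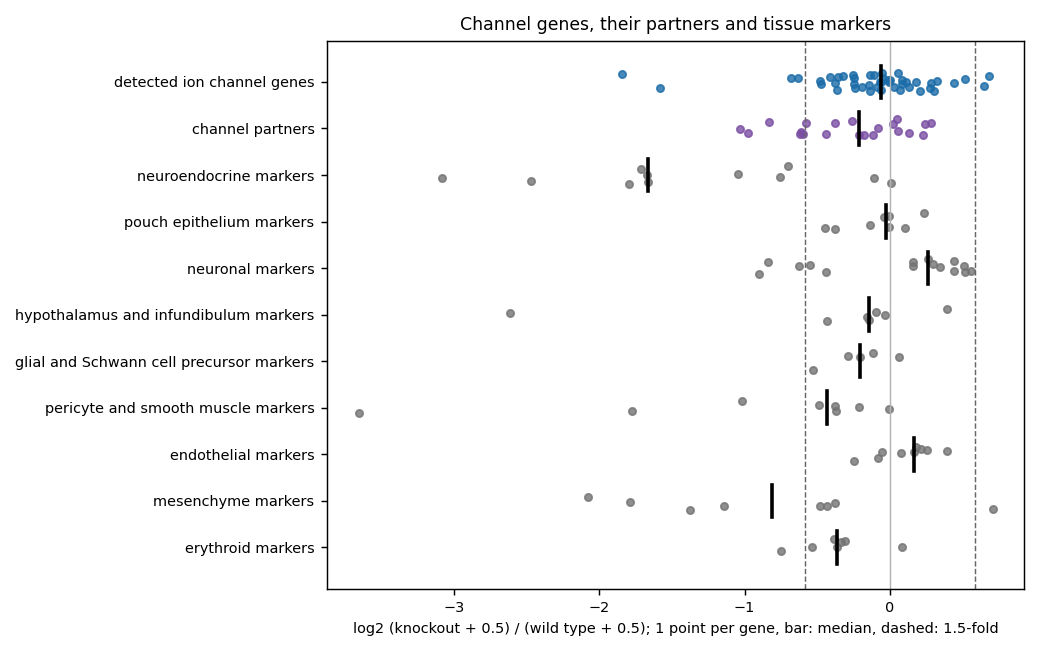
Log2 ratio of knockout over wild type with 0.5 FPKM added (x axis), with 1 point per gene compared, for the detected channel genes, their partners and marker lists. Black bars are medians: -0.06 for channel genes, -0.21 for partners and -1.66 for neuroendocrine markers, and dashed lines mark 1.5-fold.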

How the data were processed

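For each library the authors deposited a table of Ensembl identifiers, summed exon lengths and FPKM. Per the submitters' processing notes, cutadapt 1.9.1, HISAT2 2.0.1 and the build GRCm38 were used. How fragments were counted, with what annotation and use of strand, is not given in the sources used here. FPKM were used as deposited. Symbols, positions and coding sequences came from GENCODE M21, and 55141 of 55401 identifiers matched. Because FPKM times exon length moves in whole fragments, depth was recovered from low values with little rounding error (1512 and 1372 values, all whole within 0.1 fragment), and exact Poisson and Clopper-Pearson intervals were computed with scipy 1.17.1. Genes that reached 1 FPKM in either library were compared by log2 ratio after adding 0.5 FPKM. A gene is counted as higher or lower at 1.5-fold on that scale. The steps were tested on simulated counts. The rule for named genes took members past 1.5-fold, the highest of each class, the 10 highest in all, the 3 nearest the threshold on either side, and up to 4 genes per list with the greatest change past 1.5-fold. All other named genes were picked with their values in view. Values of some members are not reported here, while counts and sums include them. The members and lists were chosen with earlier results of these data known. Alternatives were 2 pseudocounts, 3 filters and 2 scalings.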

Additional observations from a re-analysis of the deposited data

How the results depend on the processing

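Counts of channel genes past 1.5-fold rest on low values. With 2 FPKM added in place of 0.5, 0 were higher and 2 lower (Kcnk3 and Kcnk9), beside 0.943% and 2.15% of all genes, since a larger addition shrinks the ratios of weak genes. With a filter of 5 FPKM, 9 members remained and 0 were higher and 0 lower, beside 0.664% and 1.97% of all genes. The TASK pair stayed past 1.5-fold under both other pseudocounts and both scalings, which multiplied the knockout library by 1.02 and 1.01. Filters did remove it: 1 FPKM on the mean left out Kcnk9 (mean 0.52 FPKM), and 5 FPKM left out both genes. Both had passed the main filter through the wild-type library only. Kcnh8, Kcnip3, Kcne1l and Kcne3 fell short of it with 2 FPKM added. Partners at least 1.5-fold lower numbered 2 of 21 with 2 FPKM added (2.15% of all genes) and 2 of 7 with a filter of 5 FPKM (1.97%). No paired analysis was possible because each genotype had 1 library. Depth limits genes near 1 FPKM: Kcne3 rests on 30 and 59 fragments.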

Other observations

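Below the detection threshold, 87 channel genes summed to 19.4 and 17.5 FPKM, wild type first. In 4 of them the counting interval lay wholly beyond 1.5-fold, a criterion set after the values were seen, and all 4 were lower in the knockout library. They are 5.19% of the 77 such genes with a fragment. Among 4534 protein-coding genes below the threshold with a fragment, 2.58% were lower and 1.17% higher by the same criterion. Scn7a, a sodium-sensing channel of glia and other non-excitable cells, measured 0.29 and 0.07 FPKM, 4.14-fold lower (2.14 to 9.63). Kcns3, a modulatory subunit, measured 0.41 and 0.08 FPKM (5.12-fold lower, 1.97 to 17.4). Kcnn4, a calcium-activated channel of blood cells and epithelia, was at 0.20 and 0.02 FPKM on 21 and 2 fragments. Kcna7 was at 0.25 and 0.02 FPKM on 11 and 1 fragments, with a ratio of 0.0800 (0.00210 to 0.623).

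Kcnk9 is an imprinted gene of a domain it shares with Peg13, a non-coding RNA, and Trappc9. Peg13 measured 13.3 and 10.9 FPKM and Trappc9 7.27 and 6.88 FPKM, so neither was lower by a factor near that of Kcnk9. Both were singled out after their values were seen.

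The receptor genes that gamma subunits such as Cacng7 and Cacng4 are best known to bind were below Cacng7 and Cacng4 in FPKM. Gria3 measured 2.40 and 4.85 FPKM, a ratio of 2.02 (1.81 to 2.26), and was past 1.5-fold in the higher direction. Gria1 was at 0.94 and 1.08 FPKM and within 1.5-fold. Gria4 at 0.99 and 0.77 FPKM and Gria2 at 0.32 and 0.26 FPKM were below the threshold. These subunits of the AMPA receptor were looked up after the gamma subunit values were seen.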
